A study of Mus musculus with 6 samples.

Results

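The EGF family of ligands and the ErbB receptors that bind them were examined in the livers of MASH diet-fed mice labelled WT or *Themis*-KO. The 10 genes, chosen by name, were the ligand genes *Nrg1*, *Nrg4*, *Egf*, *Tgfa*, *Hbegf*, *Areg* and *Btc* and the receptor genes *Egfr*, *Erbb2* and *Erbb3*. All 10 were among the 25403 genes of the count table, each on a single row, and 9 of them had enough reads to be tested. *Areg* was left out by the filter on low counts. The 3 mice labelled WT were wild-type C57BL6/J, and the 3 labelled *Themis*-KO carried a whole-body inactivation of *Themis*, a gene of T cell receptor signaling, so the inactivation was not limited to hepatocytes. All mice were put at 10 to 12 weeks of age on a Research Diets MASH diet that took 40% of its calories from fat and 20% from fructose, with 2% cholesterol added, and stayed on it for 3 months, with no chow-fed group in these data. Bulk poly(A) RNA-seq of each liver gave 1 library per mouse. The study calls its chow-fed WT and *Themis*-KO mice littermates, and for the mice on the MASH diet the sources used here did not give it, nor the batches in which libraries were made. The p-values measure the spread between these 6 livers.

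ErbB receptors are receptor tyrosine kinases that work in pairs. EGF, TGF-α, HB-EGF, amphiregulin and betacellulin bind EGFR, whereas neuregulins bind ErbB3 or ErbB4, and ErbB2 has no ligand of its own but is a partner of the others. Bound receptors recruit adaptors such as GRB2 and switch on the RAS-ERK and PI3K pathways, and in the liver EGFR signaling is known for its part in hepatocyte growth and regeneration. Most ligands are made as membrane-bound precursors that are cut free by ADAM proteases.

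The libraries held between 20679642 and 25649767 counts, so that 1 count was worth between 0.0395 and 0.048 CPM after TMM scaling. *Themis* itself ranged from 8.07 to 25.6 CPM in livers labelled WT and from 7.74 to 9.97 CPM in those labelled *Themis*-KO (log2 fold change −0.79, SE 0.38, edgeR adjusted p = 0.199). The counts thus did not separate the labels, and which part of the gene was deleted was not given in the sources used here. *Themis*-KO replicate 3 differed from replicates 1 and 2 of its label with a chi-square per degree of freedom of 41.8 and 42.9, against 9.94 between those 2. The 3 pairs of livers labelled WT differed by 27.9 to 36.5, so the likeness of *Themis*-KO replicates 1 and 2 was the unusual value. Values with and without replicate 3 are given for the members below. WT replicates 1 and 2 also differed from the other 4 livers in a mitochondrial read pattern (*Gm28438* took 96.6% and 96.8% of the summed CPM of *Gm28438* and *mt-Nd3*, against 2.20% to 3.26%), which runs partly along the genotype labels. WT replicate 3 was the only liver labelled WT that shared the pattern of the livers labelled *Themis*-KO. With this pattern as a covariate, the genotype difference was thus that of WT replicate 3 alone against the livers labelled *Themis*-KO. In that fit the log2 fold change of *Nrg1* was 2.39. That fit called 0% of all genes higher (0 of 14496) and 0.0207% lower (3 of 14496).

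Of the 9 members tested, 2 rose in livers labelled *Themis*-KO at an adjusted p under 0.05 (edgeR's quasi-likelihood test, Benjamini-Hochberg over 14496 genes), the ligands *Nrg1* and *Hbegf*. Over all genes tested, 9.11% were called in either direction, 4.97% higher and 4.14% lower. No member was called lower by edgeR or by DESeq2, and at an unadjusted p under 0.05 edgeR gave 4 members higher and 1 lower. The receptors did not pass the test. Without *Themis*-KO replicate 3, 5 of the 10 members were higher (*Nrg1*, *Hbegf*, *Areg*, *Btc* and *Tgfa*), while 15.0% of all genes were then called higher and 13.8% lower. *Areg* passed the filter in that fit only through its counts in *Themis*-KO replicates 1 and 2. Leaving out replicate 1 or 2 of either label left 0 members called by edgeR, with 4 or 5 higher at an unadjusted p under 0.05 in each of these fits, in which between 8 and 27 of all genes were called higher, and leaving out WT replicate 3 left 1, *Nrg1*. DESeq2 called 4 of the 9 members higher, and 8.82% of all genes higher and 7.52% lower. In whole liver, fewer or more cells of a type and less or more RNA per cell cannot be told apart.

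Among the ligands, position was shared by some members. *Areg* (chromosome 5, 91139599 to 91148432, forward strand, GRCm38) and *Btc* (chromosome 5, 91357261 to 91402994, reverse strand) lie 209 kb apart. *Ereg*, the gene of epiregulin, lies 46.0 kb before *Areg*, in a span of 376 kb that also holds *Epgn*. Of 25 other genes tested within 1 Mb of this span, 1 was called higher and 2 lower, with a median log2 fold change of 0.025. The promoters of *Areg*, *Btc* and *Tgfa*, ligand genes whose CPM was higher in every liver labelled *Themis*-KO than in every liver labelled WT, are shown here as the 250 bases before the RefSeq start (GRCm38.p6, 5′ to 3′ on the strand of the gene). They are chr5:91139349-91139598 for *Areg*, chr5:91402995-91403244 for *Btc* and chr6:86194972-86195221 for *Tgfa*. Capitals mark matches to any of 5 motifs, searched on both strands. The first was the CRE bound by CREB (TGACGTCA). The second was the binding motif of AP-1 (TGANTCA), whose letters do not match within a CRE. The third was the core that ETS factors bind (CCGGAA), and the fourth was the TATA box of core promoters (TATAAA). The fifth, the GC box, is known to be bound by factors of the SP family (GGGCGG).
Areg: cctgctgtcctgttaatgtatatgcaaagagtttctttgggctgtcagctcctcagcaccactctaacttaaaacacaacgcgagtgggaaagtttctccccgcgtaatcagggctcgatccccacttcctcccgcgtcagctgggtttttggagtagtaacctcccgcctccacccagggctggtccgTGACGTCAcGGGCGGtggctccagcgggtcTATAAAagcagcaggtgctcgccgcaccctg
Btc: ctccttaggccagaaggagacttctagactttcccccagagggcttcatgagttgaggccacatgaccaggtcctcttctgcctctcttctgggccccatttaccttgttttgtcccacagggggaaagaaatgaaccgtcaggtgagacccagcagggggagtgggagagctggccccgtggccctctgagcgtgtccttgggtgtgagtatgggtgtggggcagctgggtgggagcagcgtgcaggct
Tgfa: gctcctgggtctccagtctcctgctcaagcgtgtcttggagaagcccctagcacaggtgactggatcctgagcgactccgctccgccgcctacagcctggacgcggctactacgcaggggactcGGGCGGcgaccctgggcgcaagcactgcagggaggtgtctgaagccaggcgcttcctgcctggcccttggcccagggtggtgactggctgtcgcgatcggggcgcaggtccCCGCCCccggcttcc
The *Areg* window held a CRE starting 61 bases before the start, a GC box starting 52 bases before it and a TATA box starting 31 bases before it. A CRE was found in 1.55% of 32851 RefSeq promoter windows of this length, a TATA box in 12.4%, a GC box in 32.7%, an ETS core in 12.0% and an AP-1 motif in 6.75%. The *Btc* window held none of these motifs and the *Tgfa* window held 2 GC boxes. Of the 10 members 7 had a promoter entry, in 8 windows, and none of the 8 held an AP-1 match. *Nrg1*, *Hbegf* and *Erbb3* were without an entry.

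*Nrg1* encodes neuregulin 1, a ligand of ErbB3 and ErbB4, with a gene on chromosome 8 (31814551 to 32884029, reverse strand) and 18 annotated transcripts that the gene counts do not separate. In replicate order, as throughout, the livers labelled WT had 1.47, 2.78 and 4.18 CPM (32 to 106 counts) and those labelled *Themis*-KO had 32.1, 26.1 and 7.70 CPM (163 to 756 counts). The groups did not overlap, and *Themis*-KO replicate 3 was by far the nearest to the livers labelled WT. *Nrg1* rose 7.74-fold (log2 fold change 2.95, SE 0.56, 95% interval 1.66 to 4.25, adjusted p = 0.0291). The call was kept without WT replicate 3 (adjusted p = 0.0414) and without *Themis*-KO replicate 3 (adjusted p = 0.00165, log2 fold change 3.33). It was lost without replicate 1 or 2 labelled WT (adjusted p = 0.118 and 0.102) and without replicate 1 or 2 labelled *Themis*-KO (0.10 and 0.106), with log2 fold changes between 2.57 and 2.94 in these 4 fits.

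*Hbegf*, the gene of heparin-binding EGF-like growth factor on chromosome 18 (36504927 to 36515805, reverse strand), was a low transcript. Its CPM was 0.734, 0.720 and 0.908 in the livers labelled WT and 4.38, 2.49 and 1.70 in those labelled *Themis*-KO, in replicate order. The livers labelled WT lay close together, and all 3 labelled *Themis*-KO lay above them. It rose 3.61-fold (log2 fold change 1.85, SE 0.38, adjusted p = 0.0335). The call held without *Themis*-KO replicate 3 (adjusted p = 0.00429). It was lost without WT replicate 1 (0.132), 2 (0.109) or 3 (0.0592) and without *Themis*-KO replicate 1 (0.101) or 2 (0.109), with log2 fold changes between 1.40 and 1.97 in these 5 fits.

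*Btc*, which encodes betacellulin, had a CPM of 2.98, 4.89 and 5.09 in the livers labelled WT and 13.2, 12.3 and 5.67 in those labelled *Themis*-KO. *Themis*-KO replicate 3 lay just above WT replicate 3. The log2 fold change of 1.26 (SE 0.34, adjusted p = 0.0569) missed the threshold, passed it without *Themis*-KO replicate 3 (1.54, adjusted p = 0.00391) and passed it in DESeq2 (adjusted p = 0.00284). With any other liver left out, the edgeR adjusted p of *Btc* ran from 0.0901 to 0.182. With the mitochondrial pattern as a covariate, which leaves WT replicate 3 alone on the WT side, the log2 fold change of *Btc* was 1.03. *Tgfa*, the gene of TGF-α (chromosome 6, 86195223 to 86275719, forward strand), had a CPM of 22.2, 23.2 and 29.2 in livers labelled WT and 40.0, 44.8 and 29.3 in livers labelled *Themis*-KO. WT replicate 3 and *Themis*-KO replicate 3 were nearly equal. The log2 fold change of *Tgfa* was 0.61 (SE 0.17, adjusted p = 0.0639) and missed the threshold in edgeR. It was 0.75 without *Themis*-KO replicate 3 (adjusted p = 0.00694), and DESeq2 called the gene with all livers (adjusted p = 0.016). With any other liver left out, the edgeR adjusted p of *Tgfa* ran from 0.064 to 0.203. With the mitochondrial pattern as a covariate, and so against WT replicate 3 alone, the log2 fold change of *Tgfa* was 0.38.

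*Areg* encodes amphiregulin, a low-affinity EGFR ligand known from wound repair and type 2 immunity. It had 3, 5 and 2 counts in the livers labelled WT and 48, 35 and 6 in those labelled *Themis*-KO, or 0.138, 0.240 and 0.0789 CPM against 2.04, 1.51 and 0.283 CPM. The groups did not overlap in CPM, but *Themis*-KO replicate 3 (95% Poisson interval 0.104 to 0.617 CPM, counting error only) could not be told from WT replicate 2 (0.0779 to 0.560 CPM) at this depth. Over the livers of each group, 89 counts against 10 gave a ratio of 8.90 (95% interval 4.62 to 19.2, counting error only). With no filter on low counts, its log2 fold change was 3.06 (edgeR adjusted p = 0.00656), in a fit in which 8.58% of all genes were called. Without *Themis*-KO replicate 3, *Areg* passed the filter and was called (3.52, adjusted p = 0.00274). It passed only through the counts of *Themis*-KO replicates 1 and 2, the livers where it was high, so this call is no separate support. *Areg* was not called without WT replicate 1 (adjusted p = 0.166), 2 (0.121) or 3 (0.115), fits in which it passed the filter through the same 2 livers.

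*Nrg4*, a neuregulin that binds ErbB4 and is best known as a secreted factor of brown fat acting on the liver, was among the more abundant ligand transcripts. Its gene is on chromosome 9 (55220222 to 55326844, reverse strand). The CPM was 26.1, 17.8 and 24.2 in livers labelled WT and 27.3, 47.0 and 24.2 in livers labelled *Themis*-KO. The groups overlapped, with *Themis*-KO replicate 2 alone far above the rest. The log2 fold change was 0.53 (95% interval −0.065 to 1.13, adjusted p = 0.203), 0.17 without *Themis*-KO replicate 2 and 0.69 without replicate 3 (adjusted p = 0.0646). Its exons share 368 bases with *Fbxo22* on the opposite strand, and the strand setting of the counting was not given, so some reads could belong to either gene. Exons of *Nrg1* share 482 bases with *Gm26578*, and those of *Egf* 607 with *Gm42697* and 500 with *6330410L21Rik*. These 3 opposite-strand genes were not in the count table. *Tgfa* and *Erbb2* share 118 and 9 exon bases with *Gm43917* and *Mien1*, also on the opposite strand.

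*Egf*, the founding ligand of the family (chromosome 3, 129677565 to 129755316, reverse strand), was the scarcest member per kilobase of merged exons. Per kilobase of the longest transcript, *Areg* was scarcer in livers labelled WT (mean CPM per kilobase 0.125, against 0.175 for *Egf*). *Egf* had between 11 and 20 counts per liver. Its CPM was 0.826, 0.960 and 0.710 in livers labelled WT and 0.467, 0.645 and 0.567 in livers labelled *Themis*-KO. All 3 livers labelled *Themis*-KO lay below those labelled WT, but the log2 fold change of −0.56 (SE 0.29, 95% interval −1.24 to 0.12) did not pass (adjusted p = 0.231), nor did it without *Themis*-KO replicate 3 (−0.59, adjusted p = 0.249). Ranges without overlap were common in these libraries: every liver labelled *Themis*-KO lay above every liver labelled WT in 17.7% of the genes tested, and below in 16.9%. Of the 9 members tested 4 were above and 1 below, and a 3 against 3 comparison cannot reach less than p = 0.1 in an exact two-sided permutation test, the value that each of these 5 and *Areg* had.

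**Figure D1:**
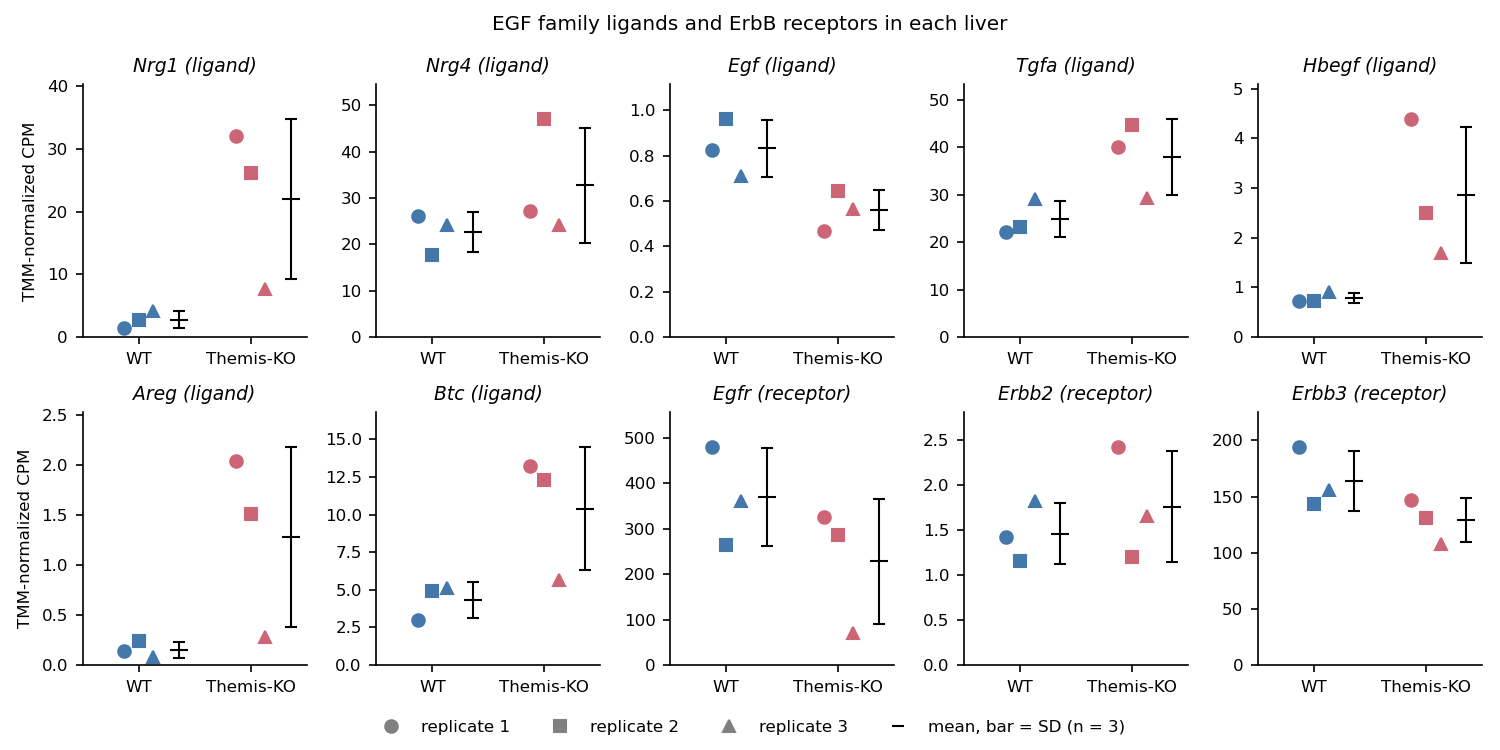
TMM-normalized CPM (vertical axes, linear from 0, a separate scale for each gene) of the 10 members in 3 livers labelled WT (blue) and 3 labelled *Themis*-KO (red), with the mean and SD of each group in black and the replicate number as the marker shape. *Nrg1*, *Hbegf*, *Areg*, *Btc* and *Tgfa* were higher in every liver labelled *Themis*-KO, with replicate 3 (triangle) the lowest of them, and *Egfr* was lowest in the same replicate 3.

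The receptors gave no call. *Egfr*, the receptor for most of these ligands (chromosome 11, 16752203 to 16918158, forward strand), had a CPM of 480, 265 and 362 in livers labelled WT and 327, 287 and 70.7 in those labelled *Themis*-KO. Replicates 1 and 2 labelled *Themis*-KO lay within the WT range, and only replicate 3 lay below it, at 1498 counts against 5525 or more in every other liver. A log2 fold change of −0.69 (SE 0.49, 95% interval −1.84 to 0.45, adjusted p = 0.37) became −0.28 without *Themis*-KO replicate 3 (adjusted p = 0.371).

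*Erbb3*, which pairs with ErbB2 or EGFR when bound by neuregulin 1 and has little kinase activity of its own, is encoded on chromosome 10 (128567523 to 128589652, reverse strand). Its CPM was 194, 143 and 156 in livers labelled WT and 147, 131 and 108 in those labelled *Themis*-KO. *Themis*-KO replicate 1 lay above WT replicate 2, so the groups overlapped. The log2 fold change was −0.35 (SE 0.15, 95% interval −0.695 to −0.000728, edgeR unadjusted p = 0.0496, adjusted p = 0.162). This was the 1 member lower at an unadjusted p under 0.05. The value was −0.21 both without WT replicate 1 and with libraries scaled by total counts alone, and −0.25 without *Themis*-KO replicate 3. It was −0.44 without WT replicate 2 and −0.46 without *Themis*-KO replicate 1. *Erbb2*, the partner receptor without a ligand (chromosome 11, 98412470 to 98437716, forward strand), had a CPM of 1.42, 1.15 and 1.82 against 2.42, 1.20 and 1.65. These ranges lay over each other (log2 fold change 0.26, 95% interval −0.475 to 0.994, adjusted p = 0.606), and the sign turned without *Themis*-KO replicate 1 (−0.049) but not without replicate 3 (0.28). The intervals of *Egfr* and *Erbb2* leave room for either direction.

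**Figure D2:**
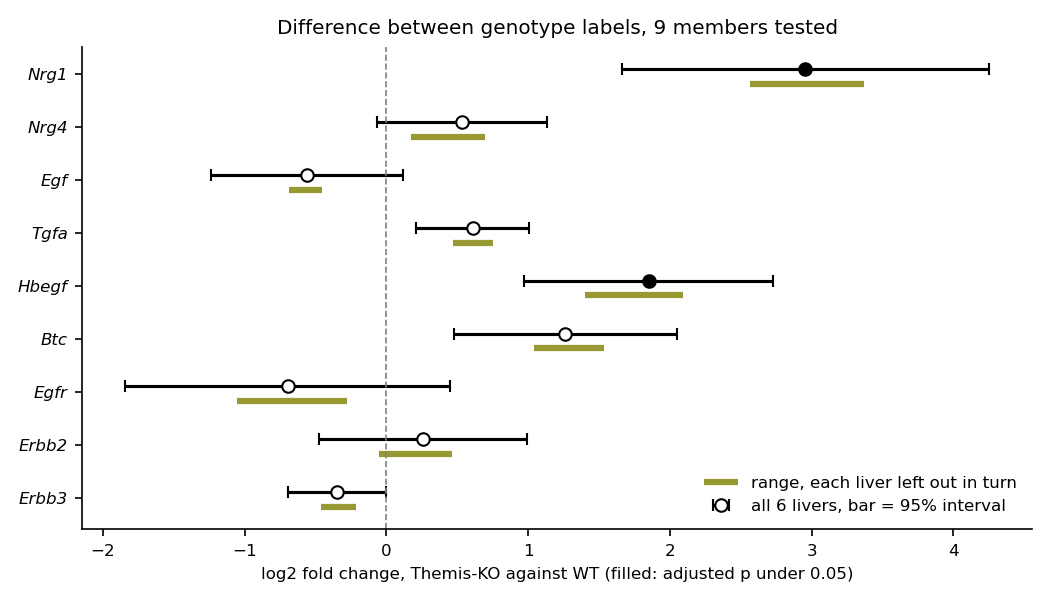
Log2 fold change of livers labelled *Themis*-KO against livers labelled WT (horizontal axis) for the 9 members tested, with the 95% interval of the edgeR fit (black) and the range over the 6 fits that leave out 1 liver (olive). Filled points, *Nrg1* at 2.95 and *Hbegf* at 1.85, have an adjusted p under 0.05, and the interval of each receptor reaches 0 or nearly so.

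Levels of different genes were compared as CPM per kilobase of merged exons. In livers labelled WT the order of the means was *Egfr* (32.6), *Erbb3* (27.3), *Tgfa* (3.83), *Nrg4* (3.74), *Btc* (0.956), *Erbb2* (0.281), *Nrg1* (0.272), *Hbegf* (0.163), *Areg* (0.125) and *Egf* (0.0738). The ranges of *Egfr* and *Erbb3*, of *Tgfa* and *Nrg4* and of each neighbouring pair from *Erbb2* down to *Egf* overlapped, so their order is not fixed beyond the spread between livers. *Erbb3* stood clear of *Tgfa*, *Nrg4* of *Btc* and *Btc* of *Erbb2*. In livers labelled *Themis*-KO the mean CPM per kilobase of *Nrg1* was 2.12, next to *Btc* at 2.29 and above *Areg* at 1.05, *Hbegf* at 0.591 and *Erbb2* at 0.338, and each of these 3 livers had more *Nrg1* than any of them had *Erbb2*. Of neighbours in the order there, *Nrg4* over *Btc* and *Erbb2* over *Egf* were separated without overlap, and the other neighbouring pairs overlapped. The length used changed the levels most for *Nrg4*, whose mean over the 6 livers was 4.57 CPM per kilobase of merged exons and 13.3 per kilobase of its longest transcript, against 4.85 and 6.95 for *Tgfa*. The same means were 1.20 and 2.29 for *Nrg1* and 0.0617 and 0.146 for *Egf*.

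In every liver the ligand transcripts together were fewer per length than the receptor transcripts. The 7 ligands summed to 8.86, 8.29 and 10.3 CPM per kilobase in livers labelled WT and to 19.3, 21.7 and 11.1 in those labelled *Themis*-KO. The 3 receptors summed to 74.8, 47.4 and 58.1 against 53.8, 47.3 and 24.6. For every 100 units of receptor transcript there were thus 11.8, 17.5 and 17.8 units of ligand transcript in livers labelled WT and 35.9, 45.8 and 45.3 in livers labelled *Themis*-KO. The ratio was higher in all 3 livers labelled *Themis*-KO, in replicates 1 and 2 with more ligand transcript and in replicate 3 mostly with less *Egfr*. With the longest transcript as the length, a setting added after the data were seen, the ratios were 23.8, 32.0 and 33.4 against 60.3, 84.7 and 86.3, so their size depends on the length and the order of the groups did not. *Nrg1* made up 1.60%, 3.25% and 3.91% of the ligand sum in livers labelled WT and 16.1%, 11.6% and 6.68% in livers labelled *Themis*-KO. *Tgfa* and *Nrg4* made up most of the rest, with 31.8% to 43.5% and 23.3% to 48.4%. By the longest transcript *Tgfa* made up 23.3% to 32.0% and *Nrg4* 37.9% to 65.8%, so the split between them depends on the length. Per 100 units of *Erbb3*, the *Nrg1* level was 0.441, 1.13 and 1.56 in livers labelled WT and 12.7, 11.6 and 4.13 in those labelled *Themis*-KO. By the longest transcript it was 0.842, 2.17 and 2.99 against 24.2, 22.1 and 7.89. These are ratios of transcripts in whole liver and not of proteins or of single cells.

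**Figure D3:**
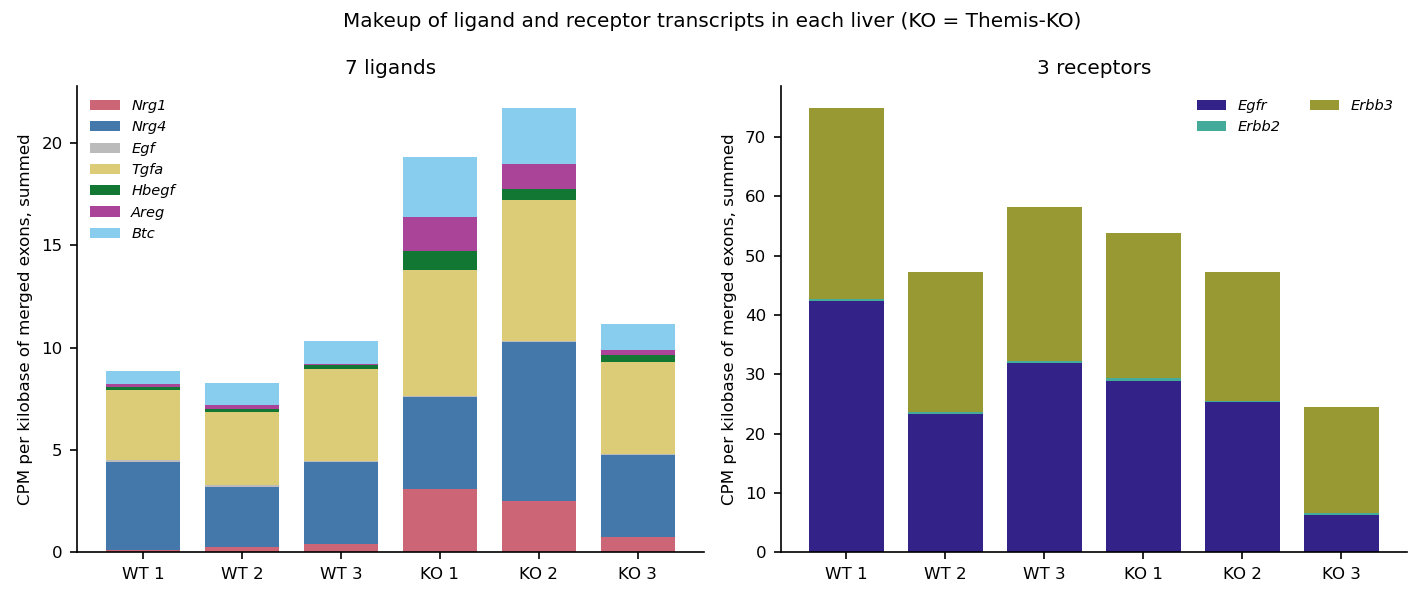
Summed CPM per kilobase of merged exons (vertical axes, linear from 0) of the 7 ligand genes (left) and the 3 receptor genes (right) in each of the 6 livers. The ligand sum reached 19.3 and 21.7 in *Themis*-KO replicates 1 and 2, against 8.29 to 11.1 in the other 4 livers, and the receptor sum was lowest in *Themis*-KO replicate 3, at 24.6.

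The tested genes whose pattern over the 6 livers was most like that of *Nrg1* were *Ly6d*, *Dusp5*, *Sprr1a*, *Sdcbp2* and *Ch25h*. Likeness was the root mean square difference of log2 CPM after centring each gene on its own mean, which was 0.277 for *Ly6d*, 0.324 for *Dusp5*, 0.380 for *Sprr1a*, 0.397 for *Sdcbp2* and 0.406 for *Ch25h*, against a median of 1.61 over all genes. *Dusp5*, which encodes a phosphatase that acts on ERK, had a CPM of 1.10, 1.34 and 2.25 in livers labelled WT and 17.1, 9.76 and 3.16 in those labelled *Themis*-KO. As in *Nrg1*, WT replicate 3 was the highest of its group and *Themis*-KO replicate 3 the lowest. *Ly6d*, a surface protein gene, had 14.6, 27.4 and 47.6 against 199, 226 and 82.7. Among the members, *Hbegf* (0.765, the 73rd nearest gene) and *Btc* (0.874, the 131st) were nearest to *Nrg1*, and *Tgfa* was at 1.25 and *Nrg4* at 1.38. *Egf* (1.85), *Erbb3* (1.74) and *Egfr* (1.97) lay farther from it than the median gene.

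**Figure D4:**
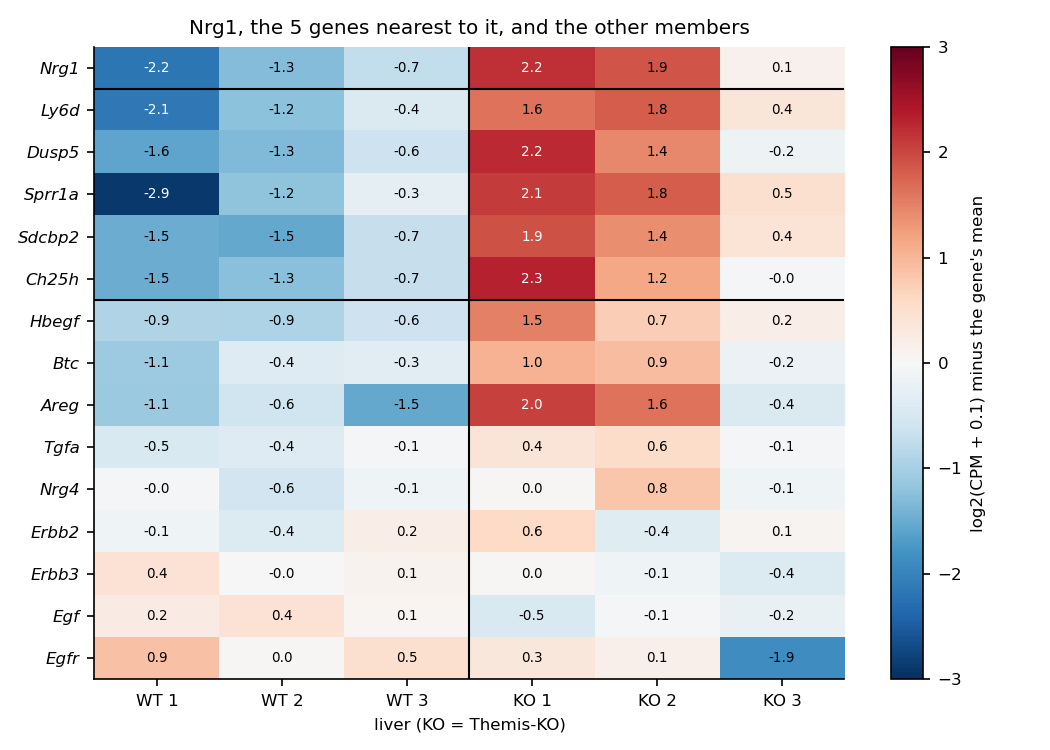
Heat map of log2(CPM + 0.1) minus the mean of each gene over the 6 livers (columns) for *Nrg1*, the 5 genes nearest to it by root mean square difference, and the other 9 members (rows). *Hbegf*, *Btc* and *Areg* were high in *Themis*-KO replicates 1 and 2 and near their mean or below it in replicate 3, whereas *Egfr* had its lowest value in *Themis*-KO replicate 3.

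Ligand release, receptor attenuation and the first steps of signaling were covered by lists of other pathway genes. The median log2 fold change over all genes tested was 0.0095, and 51% of the values were positive. Of 12 genes for ligand sheddases and their partners, 2 rose and 0 fell, with a median of 0.48 and 11 positive values. Of all genes tested, 4.97% were called higher and 4.14% lower. *Rhbdf1*, which encodes an inactive rhomboid that matures the protease ADAM17, had a CPM of 17.1, 16.3 and 18.6 in livers labelled WT and 38.2, 36.9 and 23.5 in those labelled *Themis*-KO (log2 fold change 0.92, SE 0.18, adjusted p = 0.0305). *Adam19*, a protease gene linked to neuregulin processing, had 2.52, 3.22 and 2.60 against 5.52, 4.56 and 4.34 (0.79, SE 0.18, adjusted p = 0.0407). In both genes every liver labelled *Themis*-KO lay above every liver labelled WT. Leaving out 1 liver gave from 0 to 7 genes of this list higher, the 7 without *Themis*-KO replicate 3 (with 1 gene lower there) and 0 without replicate 1 or 2 of either label, by edgeR. Over all genes, the fit without *Themis*-KO replicate 3 called 15.0% higher and 13.8% lower. DESeq2 called 5 of the list higher and 0 lower, against 8.82% and 7.52% of all genes.

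The next 3 lists had 1 gene each called higher, a share near the 4.97% of all genes called higher. Of 15 ErbB attenuator genes 1 rose and 0 fell, with a median log2 fold change of 0.16. It was *Cblb*, the gene of a ubiquitin ligase that sends active receptors to degradation, with a CPM of 8.17, 8.06 and 10.4 against 18.2, 16.0 and 12.0 (0.79, SE 0.18, adjusted p = 0.0407). Of 18 adaptor and RAS genes 1 rose and 0 fell, with a median of 0.15. It was *Src*, a cytoplasmic tyrosine kinase gene, with a CPM of 4.27, 3.70 and 3.99 against 12.2, 9.81 and 6.14 (1.24, SE 0.25, adjusted p = 0.0314). Both genes had all livers labelled *Themis*-KO above all labelled WT, with replicate 3 the lowest of them. Without that replicate, 6 attenuator genes and 7 adaptor and RAS genes were higher, and 2 adaptor and RAS genes lower. That fit called 15.0% of all genes higher and 13.8% lower. Without replicate 1 or 2 of either label, edgeR called 0 of both lists. With all livers DESeq2 called 2 higher in each list, against 8.82% of all genes.

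Of 17 ERK-induced genes 1 rose and 1 fell, with a median log2 fold change of 0.58 and 15 positive values. Over all genes tested, 51% of the values were positive. *Dusp5*, described above, differed by 2.66 in log2 CPM (SE 0.59, adjusted p = 0.0386). *Spry4*, the gene of a feedback inhibitor of receptor tyrosine kinase signaling, fell by 0.82 (SE 0.15, adjusted p = 0.0261), from a CPM of 15.8, 11.1 and 13.9 to 7.44, 7.61 and 8.03. DESeq2 called 7 of the list higher and 1 lower, the fit with no filter on low counts 8 and 1, and scaling by total counts alone 4 and 1. Over all genes, DESeq2 called 8.82% higher and 7.52% lower, and the fit with no filter called 8.58% in either direction. Total counts alone gave 1449 genes higher and 387 lower of 14496. Leaving out 1 liver gave from 0 to 8 of these ERK-induced genes higher, the 8 without *Themis*-KO replicate 3, when 15.0% of all genes were higher. There was 1 gene lower without *Themis*-KO replicate 3 or WT replicate 2, and there were 0 lower by edgeR when any of the other 4 livers was left out. Of the 5 remaining family genes, *Epgn* and *Nrg3* had no entry under those names in the count table. *Nrg2* had too few counts to be tested, and neither *Ereg* nor *Erbb4* passed. *Ereg* had a CPM of 0.413, 0.480 and 0.552 against 1.49, 1.12 and 0.378 (log2 fold change 1.04, SE 0.49, adjusted p = 0.188). *Themis*-KO replicate 3 was the lowest of all 6 livers in this gene, and the groups overlapped. *Erbb4*, the receptor gene for *Nrg4* and a further one for *Nrg1*, had 2.48, 3.70 and 1.62 against 2.04, 1.46 and 2.22 (−0.44, SE 0.33, adjusted p = 0.393), with groups that overlapped.

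**Figure D5:**
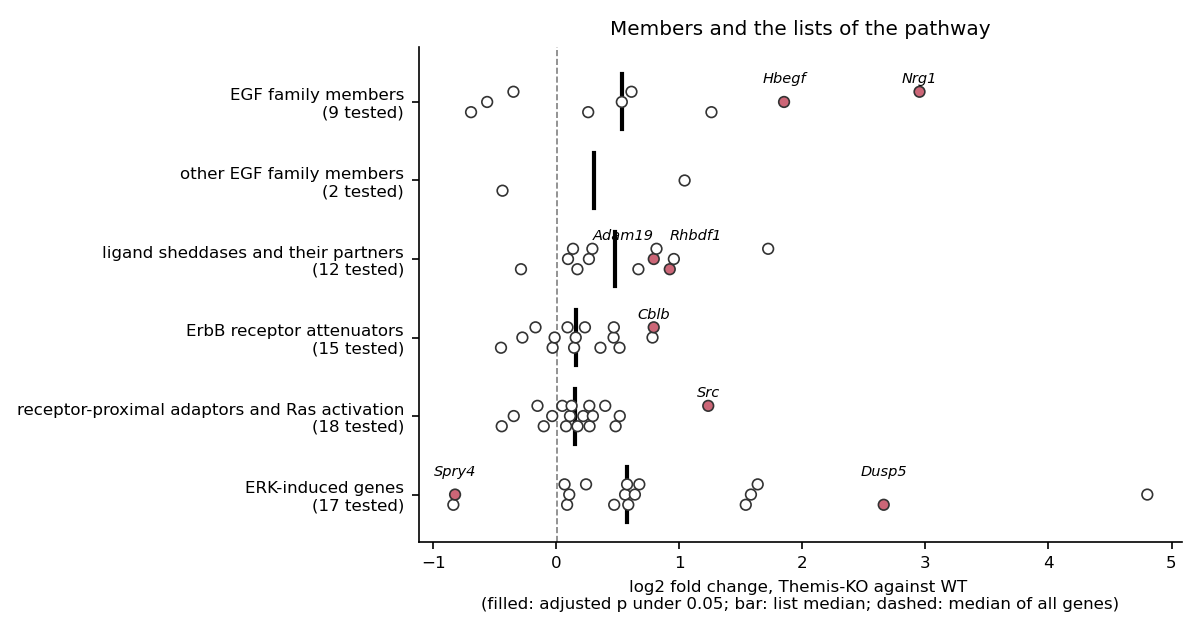
Log2 fold change of livers labelled *Themis*-KO against livers labelled WT (horizontal axis) of each tested gene (points) of the EGF family and of 5 lists of pathway genes (rows), with filled points for an adjusted p under 0.05, a bar at the median of each list and a dashed line at the median of all genes, 0.0095. Only 8 points are filled, 7 to the right of the dashed line and *Spry4* to the left.

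Markers of several cell types differed between the labels. The summed CPM of 8 cholangiocyte markers, led by *Spp1* and then *Sox9*, ran from 158 to 195 in livers labelled WT and from 394 to 631 in livers labelled *Themis*-KO. *Spp1* alone had 137, 180 and 163 against 571, 367 and 366 CPM, so these sums were mostly *Spp1*. All 8 markers had positive log2 fold changes, but the groups overlapped in *Krt19*, *Sox9*, *Cftr* and *Muc1*. The summed CPM of 9 macrophage markers (most abundant *Cd5l* and *Clec4f*) ran from 323 to 557 and from 553 to 706. That of 9 hepatic stellate cell markers (*Dcn* and *Col3a1*) ran from 400 to 449 and from 593 to 635. The 10 hepatocyte markers (*Alb* and *Cyp2e1*) summed to between 66200 and 69400 CPM in livers labelled WT and between 51400 and 56700 in those labelled *Themis*-KO. The 4 neutrophil markers (*Csf3r* and *S100a9*) summed to 6.56, 5.66 and 9.90 against 23.0, 16.0 and 7.65, so *Themis*-KO replicate 3 was the lowest of its group. It was also the lowest of its group in the cholangiocyte (394) and stellate cell (593) sums, but not in the macrophage or hepatocyte sums. Of these lists, 2 cholangiocyte, 3 macrophage and 4 stellate cell genes were called higher and 2 hepatocyte genes lower, while the neutrophil list had 0 calls by edgeR although all 4 of its genes had positive values. Of 8 endothelial markers (*Stab2* and *Fcgr2b*) 1 was higher, and of 5 tested T cell markers (*Cd4* and *Lck*) 1 was lower. Over all genes tested, 4.97% were called higher and 4.14% lower. None of these lists had a marker at 0 counts in every liver. The part of these cells in the levels of the ligands was not tested.

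Markers of the disease-associated hepatocytes of the study, a list of 7 genes that holds *Nrg1* itself, moved with it: 6 of 7 were called higher, led in abundance by *Anxa2* and *Jun*. Of all genes tested, 4.97% were called higher. The list was taken from the study, which measured some of these genes in the same mice, so it is not independent evidence of a direction. Of 6 male-biased liver genes 5 were called lower (most abundant *Mup20*, which was not, and *Cyp2d9*), against 4.14% of all genes. The Y-linked genes *Eif2s3y* and *Ddx3y* had at least 52.1 and 36.3 CPM in every liver.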

How the data were processed

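Liver RNA of 3 mice labelled WT and 3 labelled *Themis*-KO was sequenced after poly(A) selection. The authors trimmed reads (cutadapt 2.3), aligned them to GRCm38 (STAR 2.7.8a) and deposited expected counts per gene from RSEM 1.3.3, per the labels and methods; the values in the file were whole numbers, and the strand setting of the counting was not given in the sources used here. Groups were taken from the sample titles. Genes were filtered with filterByExpr (10907 of 25403 removed), scaled by TMM and fitted in edgeR (quasi-likelihood test), and p-values were adjusted by Benjamini-Hochberg over 14496 genes, with a threshold of 0.05. Library totals of 20679642 to 25649767 counts set the precision, and Poisson intervals cover counting error only. DESeq2, other scalings and filters, a replicate block, the mitochondrial pattern as a covariate and leaving out each liver were the alternatives. Exon lengths came from GENCODE vM21, and promoter sequences from RefSeq (GRCm38.p6). On simulated data, 181 of 200 changed genes were recovered among 14320 genes, with 13 false calls of 194. The changes simulated were larger in log2 than the difference of every tested member except *Nrg1* and *Hbegf*. Recovery of smaller differences, such as those of the receptors, was not simulated.

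The members and lists were chosen with earlier results of these data known. Named were the 10 members, *Themis*, the called genes of each pathway list (up to 4, or the 2 with the lowest adjusted p where none was called), the 2 most abundant genes of each marker list (1 list is not reported here) and the 5 genes nearest to *Nrg1*. The genes *Gm28438*, *mt-Nd3* and the Y-linked pair served as checks.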

Additional observations from a re-analysis of the deposited data

How the results depend on the processing

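The count of members called higher in livers labelled *Themis*-KO was 2. It was also 2 with RLE or upper quartile scaling and with at least 10 counts in every liver. It was 4 with total counts alone, 4 in DESeq2 and 5 with no filter on low counts. It was 0 with the replicate block, by edgeR, with 4 members higher at an unadjusted p under 0.05. The fit with the mitochondrial pattern as a covariate has WT replicate 3 alone on the WT side, so its calls are not compared here. Leaving out 1 liver gave from 0 to 5. The count of members called lower was 0 under all of these alternatives. With the block, the log2 fold change was 2.80 for *Nrg1* (adjusted p = 0.094) and 1.76 for *Hbegf* (adjusted p = 0.0912), against 2.95 and 1.85. The study speaks of 3 pairs of livers, and which livers formed a pair was not given in the sources used here. Deviations from the group mean correlated at 0.00028, −0.24 and −0.16 for same-numbered livers. For livers with different numbers they correlated at −0.14 to 0.28. With 3 livers a group, these values cannot decide whether the numbers mark pairs. Over all genes the block left 17 higher and 45 lower, against 721 and 600.

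The log2 fold change of *Erbb2*, 0.26, was −0.043 with the mitochondrial pattern as a covariate and ran from −0.049 to 0.46 over the fits that leave out 1 liver. With that covariate the livers labelled *Themis*-KO are set against WT replicate 3 alone, the highest of its label for *Erbb2* (1.82 CPM). Why single livers differed was not tested. Scaling by total counts alone moved the median log2 fold change of all genes from 0.0095 to 0.15, and gave 1449 genes higher and 387 lower. With 3 livers a group, and with 2 to 48 counts per liver for *Areg* and 11 to 20 for *Egf*, small differences were not detectable in these genes.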
